A study of Mus musculus with 22 samples.

Results

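Chemokines are small secreted proteins that guide the movement of leukocytes and other cells, and they act through G protein-coupled receptors. *Mlx* encodes MAX-Like protein X (MLX), a transcription factor that binds E-box DNA with MondoA or ChREBP. The chemokine genes were all rows of the testes expression table whose symbol begins with *Ccl*, *Cxcl*, *Ccr* or *Cxcr* and a digit, with *Cx3c*, or with *Xcl* or *Xcr* and a digit. This name pattern found 52 of 17931 gene symbols, 33 ligands and 19 receptors. RNA came from the testes of 3 WT males and 3 MLX KO males at 7 months of age on a 129S4 background, untreated and sequenced as 1 library per mouse, in littermate pairs numbered 1 to 3. The MLX KO mice lack exons 3 to 6 of *Mlx*, which encode the dimerization and DNA-binding region, in every cell of the body, and the WT males had been shown to be fertile. In a constitutive deletion, a change in a whole testis cannot be assigned to one cell type, and in bulk RNA fewer cells of a type and less RNA per cell cannot be told apart. Libraries held 16674678 to 19742726 counts, so that 1 count was worth 0.0507 to 0.06 CPM, the unit of counts scaled to library size.

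By structure, chemokines are divided into CC, CXC, CX3C and XC ligands according to the spacing of their first cysteines, and receptors are named after the ligand class they bind. Inflammatory chemokines are induced in injured or infected tissue and draw monocytes, neutrophils and T cells, whereas homeostatic chemokines are made constitutively and position cells in healthy tissue. In the testis, macrophages lie among the Leydig cells in the interstitium and on the wall of the tubules, and CXCL12 acting through CXCR4 is known to guide migrating germ cells and to hold spermatogonial stem cells in their niche.

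MLX heterodimers recognise E-box elements, and many chemokine genes carry NF-kappaB or interferon response sites, so the 250 bases before the transcription start were searched on both strands for the E-box CACGTG, for the interferon-type repeat (GAAA, any 2 bases, GAAA) and for the NF-kappaB site. RefSeq promoter sequences of the mm10 assembly (GRCm38.p6) were at hand for 39 of the 52 genes. The windows below are those of 3 ligands that rose, *Cxcl12*, *Cxcl13* and *Ccl8*, chosen after their values were seen, and of *Cxcl3*, which holds the E-box but gave a single count in 6 libraries. Capitals mark the E-box and, further on, the NF-kappaB site, where 2 matches overlap, and a sequence without capitals holds none of the 3 motifs.
Cxcl12, chr6:117168285-117168534, plus strand: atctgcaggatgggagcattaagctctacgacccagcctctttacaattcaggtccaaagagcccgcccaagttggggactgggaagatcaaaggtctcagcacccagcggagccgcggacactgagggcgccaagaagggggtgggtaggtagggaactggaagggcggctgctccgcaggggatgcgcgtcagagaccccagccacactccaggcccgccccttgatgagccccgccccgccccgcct
Cxcl13, chr5:95956689-95956938, plus strand: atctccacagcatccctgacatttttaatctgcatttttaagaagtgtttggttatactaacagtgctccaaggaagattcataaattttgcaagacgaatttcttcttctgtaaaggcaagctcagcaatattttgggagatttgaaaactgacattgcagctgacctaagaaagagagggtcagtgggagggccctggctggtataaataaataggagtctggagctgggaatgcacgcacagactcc
Ccl8, chr11:82114935-82115184, plus strand: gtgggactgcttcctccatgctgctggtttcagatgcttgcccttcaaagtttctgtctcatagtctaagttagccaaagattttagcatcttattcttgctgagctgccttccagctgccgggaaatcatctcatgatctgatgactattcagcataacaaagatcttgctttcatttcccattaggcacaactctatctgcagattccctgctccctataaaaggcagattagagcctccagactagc
Cxcl3, chr5:90785851-90786100, plus strand: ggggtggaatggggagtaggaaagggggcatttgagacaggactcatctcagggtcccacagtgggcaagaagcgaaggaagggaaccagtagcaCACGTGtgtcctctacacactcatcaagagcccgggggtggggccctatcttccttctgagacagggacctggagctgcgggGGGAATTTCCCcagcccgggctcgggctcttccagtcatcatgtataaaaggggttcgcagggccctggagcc

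The E-box was found in 2 of the 39 promoters (5.13%), those of *Cxcl3* and *Xcr1*, against 6.86% of 27025 genes with a promoter sequence. None of the 9 promoters at hand for genes that rose held it. The NF-kappaB site was found in 10 of the 39 (25.6%, against 8.23% of all genes) and in 0 of the 9. The 10 were *Cxcl1*, *Cxcl2*, *Cxcl3*, *Cxcl10*, *Ccl1*, *Ccl9*, *Ccl20*, *Ccr1*, *Ccr3* and *Ccr6*. Only *Ccr6* of these had enough counts to be tested, and it was lower in KO. The interferon-type repeat was found in *Ccl19*, *Cxcl10* and *Cxcl14* (7.69%, against 3.46%), and *Cxcl14* was the 1 gene of the 9 with it. A match describes these letters in this window and does not show binding.

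Of the 52 genes, 23 had enough counts to be compared by the quasi-likelihood test of edgeR, with p-values adjusted by Benjamini-Hochberg over 14640 genes, and 29 were too low. At an adjusted p of 0.05, 14 of the 23 differed, against 45.4% of all genes tested. Of these, 11 were higher in MLX KO testes (47.8%, against 24.8% of all genes) and 3 were lower (against 20.6%), and 9 did not pass. Log2 fold change (LFC) below is KO relative to WT from that test, followed by its standard error (SE). The median LFC of the 23 was 0.66, against 0.03 for all genes tested. Genes that rose with an LFC above 1, as did 5.68% of all genes, included *Cxcl12*, *Cxcl13*, *Cxcl14*, *Cxcl16*, *Cx3cl1*, *Ccl6*, *Ccl8* and *Ccr2*. The level of all 3 KO libraries lay above all 3 WT libraries for 10 of the 23 (against 30.3% of all genes) and below for 5 (against 25.9%). These counts carry a limit, since 5 genes, among them *Ccl6*, *Ccr2*, *Cxcl13* and *Cxcl14*, reached the filter in all 3 KO libraries but not in all 3 WT libraries and so were tested through their KO level. Among the 15 genes that reached it in all 6 libraries, 6 were higher and 3 lower, beside 24.8% higher and 20.6% lower of all genes tested. The shares of all genes that likewise reached it in all 6 libraries were not counted.

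**Figure D1:**
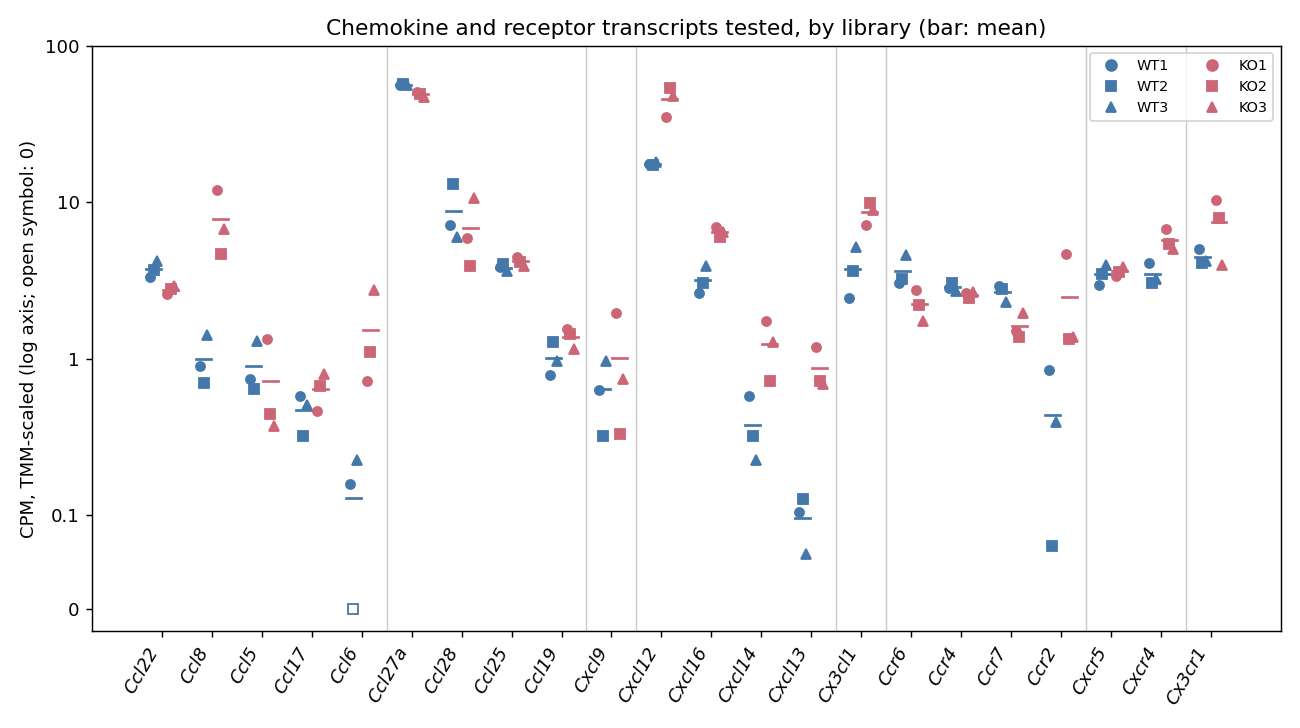
Level of the tested chemokine and receptor genes described here in each library, as CPM scaled by TMM factors on a log axis, grouped by role from inflammatory CC ligands at the left to the CX3C receptor at the right. Each point is 1 library, blue for WT and red for KO, the bar is the mean of 3, and the open symbol at the foot is a count of 0; *Ccl27a* at 47.3 to 57.0 CPM and *Cxcl12* at 17.4 to 53.6 CPM stand above all others.

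Levels differed widely among the genes. *Ccl27a* and *Cxcl12* together supplied 56.4% of all counts in the 52 genes, and the 29 untested genes supplied 2.88%. Summed over all 52, the level was 123, 129 and 128 CPM in WT1 to WT3 and 175, 170 and 171 CPM in KO1 to KO3. Leaving out *Ccl27a*, the ligands summed to 42.1 to 50.1 CPM in WT and 86.7 to 98.5 CPM in KO. Receptors summed to 21.9 to 24.3 CPM in WT and 25.3 to 37.9 CPM in KO. Per kilobase of exon, *Ccl27a* was highest at a mean of 23.8 RPKM in WT and 20.6 in KO, and in WT it was followed by *Cxcl12* at 2.16, *Ccl8* at 1.96, *Cxcr4* at 1.91 and *Ccl28* at 1.8 RPKM. In KO, *Ccl8* at 15.3 RPKM and *Cxcl12* at 5.57 RPKM came next after *Ccl27a*, and *Cxcr4* stood at 3.16 RPKM.

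The homeostatic and other CXC ligands were higher in MLX KO testes. All 4 that could be tested passed, with a median LFC of 1.53 that does not depend on the fitted value of *Cxcl13*, although *Cxcl13* and *Cxcl14* were tested through their KO level. The last ligand of the group, *Cxcl17*, which is known from mucosal tissue, was too low. *Cxcl12* gave 332, 274 and 321 counts in WT against 685, 968 and 900 in KO. Its level of 17.7 CPM ± 0.37 (SD, n = 3) in WT became 45.5 ± 9.29 in KO, an LFC of 1.36 (SE 0.13, edgeR adjusted p = 2.35e-05), and the lowest KO library, KO1, stood at 1.99 times the WT mean. *Cxcl12* (chr6:117168535-117181368, plus strand) had the lowest adjusted p of the 23 genes.

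*Cxcr4*, which encodes the receptor of CXCL12, gave 78, 48 and 57 counts in WT against 130, 98 and 95 in KO. The groups did not overlap, at 3.46 CPM ± 0.571 and 5.72 ± 0.877 (SD, n = 3), and its LFC was 0.72 (SE 0.17, edgeR adjusted p = 0.0062). *Ackr3*, an atypical receptor that scavenges CXCL12 and that the name pattern does not reach, gave 92, 89 and 75 counts in WT against 186, 150 and 213 in KO, with an LFC of 0.99 (edgeR adjusted p = 0.000459). Ligand, signalling receptor and scavenger were thus each higher in all 3 KO libraries than in any WT library.

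*Cxcl13* (chr5:95956939-95961068), the B cell attractant of lymphoid follicles, had 2, 2 and 1 counts in WT, at the detection floor of 3 counts per library, and 23, 13 and 13 in KO. From pooled counts, KO stood at 9.12 times WT with a 95% counting interval of 3.65 to 29.3, and edgeR's adjusted p was 0.000627. No fold is given from the fit, because WT was at the floor. *Cxcr5*, which encodes the receptor of CXCL13, lay at 2.95 to 3.95 CPM in WT and 3.4 to 3.86 CPM in KO, with an LFC of 0.07 (edgeR adjusted p = 0.774). Exons of *Cxcr5* share 110 bases with *Bcl9l* on the opposite strand.

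*Cxcl14* (chr13:56288643-56296811), a ligand made by epithelia and stroma, gave 11, 5 and 4 counts in WT against 34, 13 and 24 in KO, an LFC of 1.7 (SE 0.44, edgeR adjusted p = 0.00836). Every KO library was above every WT library, KO2 by the least. *Cxcl16* (chr11:70454389-70459984), which is made as a membrane protein on macrophages and dendritic cells, gave 50, 48 and 69 counts in WT against 134, 108 and 121 in KO. Its LFC was 1.01 (SE 0.17, edgeR adjusted p = 0.000668), again without overlap. Of its 3021 exon bases, 552 are shared with *Zmynd15* on the opposite strand, a gene with 3833 to 4885 counts per library that was lower in KO (LFC -0.33), and reads from the shared bases cannot be told apart without strand. *Cxcr6*, which encodes the receptor of CXCL16, was too low to test at 8, 6 and 8 counts in WT and 24, 5 and 6 in KO, with KO1 alone above the WT range.

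*Cx3cl1* encodes fractalkine, a ligand tethered to the membrane of endothelial and epithelial cells. It gave 46, 57 and 92 counts in WT against 138, 179 and 168 in KO, an LFC of 1.21 (SE 0.23, edgeR adjusted p = 0.00149), and no KO library fell within the WT range. *Cx3cr1* encodes its receptor, which marks resident macrophages and patrolling monocytes. The receptor gave 95, 64 and 75 counts in WT against 201, 143 and 75 in KO. KO1 and KO2 stood above WT, whereas KO3 at 3.97 CPM lay below the lowest WT library at 4.07 CPM. The LFC of 0.74 (SE 0.28) passed narrowly, with an edgeR adjusted p of 0.0494, and was 0.41 (edgeR adjusted p = 0.197) without KO1. The call was also lost without WT1, WT2, WT3 or KO2, in edgeR with the size factors of DESeq2 (adjusted p = 0.053), and in DESeq2 with littermate pairs as a block (adjusted p = 0.0712).

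Of the 15 inflammatory CC ligands in the table, 5 could be tested, and *Ccl8* and *Ccl6* were higher. *Ccl8*, a ligand of the gene cluster on chromosome 11 (chr11:82115185-82116799), gave 17, 11 and 25 counts in WT against 233, 84 and 128 in KO. Its level of 1.0 CPM ± 0.367 (SD, n = 3) in WT became 7.81 ± 3.79 in KO, an LFC of 2.95 (SE 0.38, edgeR adjusted p = 0.000146). The lowest KO library, KO2 at 4.65 CPM, exceeded the highest WT library at 1.41 CPM. *Ccl6*, a macrophage-derived ligand of rodents from the same cluster (chr11:83587886-83593087), gave 3, 0 and 4 counts in WT against 14, 20 and 52 in KO. Pooled counts put KO at 11.4 times WT (95% counting interval 5.32 to 29.3), the LFC was 3.45 (SE 0.72) and edgeR's adjusted p was 0.00259. KO3 gave most of the *Ccl6* counts, and the call held when any 1 library was left out, with an LFC from 2.72 without KO3 (edgeR adjusted p = 0.00747) to 4.04 without WT3 (edgeR adjusted p = 0.00648).

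*Ccl5*, a ligand made by T cells and NK cells, from that cluster, gave 14, 10 and 23 counts in WT against 26, 8 and 7 in KO, with an LFC of -0.3 (edgeR adjusted p = 0.64). *Ccl22* and *Ccl17* encode ligands of CCR4, made by dendritic cells and macrophages. *Ccl22* gave 63, 58 and 75 counts in WT against 50, 50 and 55 in KO, and all KO levels lay below all WT levels, but its LFC of -0.44 did not pass (edgeR adjusted p = 0.0527). The LFC of *Ccl17* was 0.42 (edgeR adjusted p = 0.383), with overlapping groups. *Cxcl9*, an interferon-induced ligand of CXCR3, gave 12, 5 and 17 counts in WT against 38, 6 and 14 in KO, with an LFC of 0.66 (edgeR adjusted p = 0.372) that was -0.25 without KO1.

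Of the 11 CC receptors 5 could be tested, and 2 were higher and 2 lower. *Ccr2*, which encodes the receptor by which monocytes respond to CCL2, CCL7 and CCL12, gave 16, 1 and 7 counts in WT against 91, 24 and 26 in KO. Its LFC was 2.43 (SE 0.64, edgeR adjusted p = 0.00993), and KO1 at 4.69 CPM stood well above KO2 at 1.33 and KO3 at 1.38 CPM. The LFC was 1.56 without KO1 (edgeR adjusted p = 0.0287) and 3.34 without WT1 (edgeR adjusted p = 0.00874). No KO library fell within the WT range of *Ccr2* (chr9:124101918-124109140). *Ccr4*, which encodes the receptor of CCL17 and CCL22, lay at 2.71 to 3.05 CPM in WT and 2.43 to 2.65 CPM in KO, so that all KO levels were below all WT levels, but its LFC of -0.16 did not pass (edgeR adjusted p = 0.49).

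Among the 4 homeostatic CC ligands, all tested, 0 were higher by edgeR at an adjusted p of 0.05, 0 at an unadjusted p of 0.05 and 0 by DESeq2, and 1, *Ccl27a*, was lower by edgeR. Their median LFC was -0.04. *Ccl27a*, known as a skin T cell attractant, gave 1069, 896 and 998 counts in WT against 980, 892 and 893 in KO. Its level fell from 56.5 CPM ± 0.383 to 49.1 ± 1.66 (SD, n = 3), a small LFC of -0.2 (SE 0.05, edgeR adjusted p = 0.00816) with no overlap, but with library size as the only scaling the LFC was -0.07 and did not pass (adjusted p = 0.306). In DESeq2 with littermate pairs as a block the adjusted p was 0.0538. Transcripts of *Ccl27a* align to *Ccl27b* at 99.3% identity over 425 of 428 bases, and near-identical copies are also annotated as *Gm13306*, *Gm20878*, *Gm21586* and *Gm21953*, so how the counting assigned reads among these copies is uncertain. *Ccl28*, a mucosal ligand, ranged from 5.98 to 13.1 CPM in WT and from 3.93 to 10.6 CPM in KO, and its LFC of -0.34 did not pass (edgeR adjusted p = 0.442). *Ccl25*, the thymic ligand of CCR9, and *Ccl19*, a ligand of CCR7, had LFCs of 0.13 and 0.47 (edgeR adjusted p = 0.491 and 0.181). *Ccl25* shares 204 exon bases with *Elavl1* on the opposite strand, and *Ccl19* has a near-identical copy, *Gm2564*, at 98.9% identity over 707 of 745 bases.

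*Ccr6* and *Ccr7*, receptor genes of lymphocytes and dendritic cells, were lower. *Ccr6*, which encodes the receptor of CCL20 (chr17:8236041-8258519), gave 58, 51 and 81 counts in WT against 53, 40 and 33 in KO, an LFC of -0.7 (SE 0.23, edgeR adjusted p = 0.0267). *Ccr7*, which encodes the lymph node homing receptor (chr11:99144199-99155077), gave 55, 44 and 41 counts in WT against 29, 25 and 37 in KO, an LFC of -0.72 (SE 0.22, edgeR adjusted p = 0.0179). In both, every KO level lay below every WT level. Neither call was firm. With library size alone the adjusted p was 0.0662 for *Ccr6* and 0.0502 for *Ccr7*, in DESeq2 with littermate pairs as a block it was 0.129 and 0.156, and with DESeq2 without the block that of *Ccr7* was 0.0566. Without WT3, KO2 or KO3 the *Ccr6* call was lost, and without WT1, WT2 or KO2 the *Ccr7* call was lost. *Ccr7* lies 1.9 Mb from *Mlx* on chromosome 11.

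**Figure D2:**
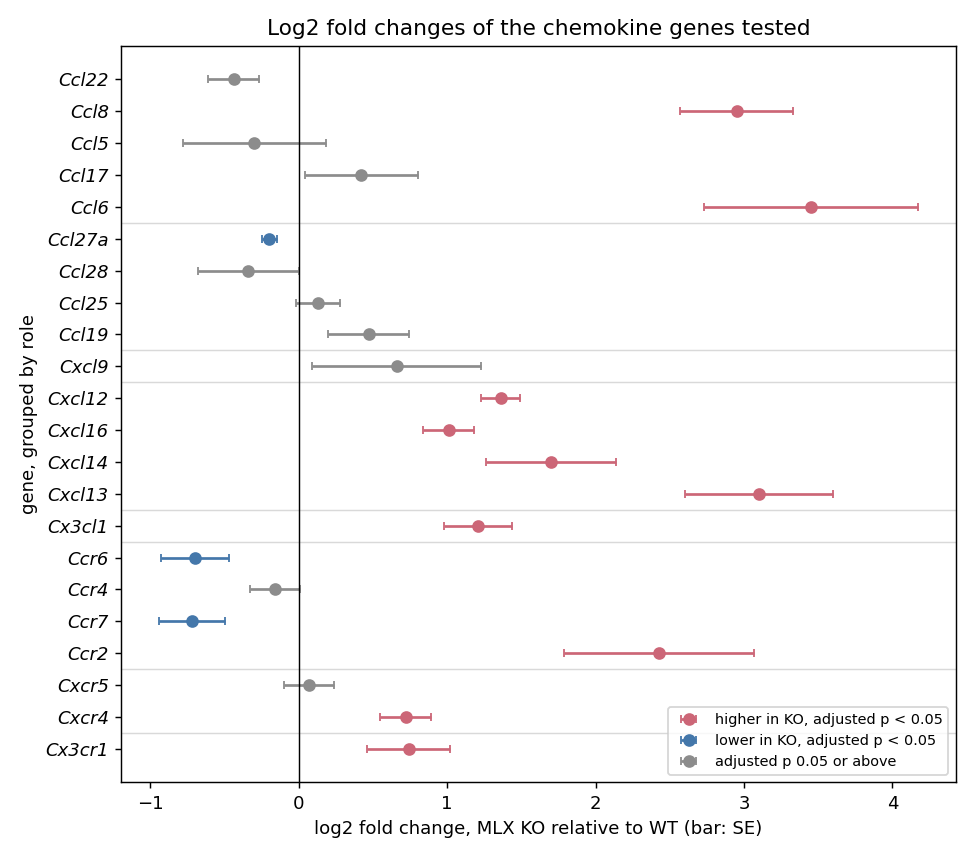
Log2 fold change of KO relative to WT for the tested genes described here, 1 point per gene with the SE from edgeR's fit as the bar, ordered by role. Red points are higher and blue points lower at an adjusted p under 0.05, and grey points did not pass; the 4 CXC ligands from *Cxcl12* to *Cxcl13* all lie above 1, with the point of *Cxcl13* fitted against a WT group at the detection floor, whereas the 4 homeostatic CC ligands lie between -0.34 and 0.47.

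The remaining 29 genes, 18 ligands and 11 receptors, were too low to compare. Of these, 16 had 3 or fewer counts in every library, namely *Ccl1*, *Ccl3*, *Ccl4*, *Ccl11*, *Ccl20*, *Ccr1l1*, *Ccr3*, *Ccr8*, *Ccr9*, *Ccr10*, *Cxcl2*, *Cxcl3*, *Cxcl5*, *Cxcl15*, *Cxcl17* and *Cxcr1*. The other 13 were *Ccl2*, *Ccl7*, *Ccl9*, *Ccl12*, *Ccl24*, *Ccr1*, *Cxcl1*, *Cxcl10*, *Cxcr2*, *Cxcr3*, *Cxcr6*, *Xcl1* and *Xcr1*, and the highest count in any library was 24. Summed over the 29 genes there were 147 counts in WT and 324 in KO, or 2.64 to 2.93 CPM in the WT libraries and 4.65 to 6.5 CPM in the KO libraries. The raw KO sum was above the raw WT sum for 22 genes, below for 6 and equal for 1. The share of all other untested genes with a higher KO sum was not counted, and genes such as *Cxcl3* and *Cxcl5* rest on 1 count. No direction of the 29 genes is therefore read from these numbers.

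*Ccr1*, which encodes a receptor of inflammatory CC ligands on monocytes, gave 3, 1 and 0 counts in WT against 8, 6 and 15 in KO. *Ccl7*, a ligand of CCR2, gave 0, 1 and 0 counts in WT against 9, 1 and 4 in KO. Both were called higher when no filter was applied (edgeR adjusted p = 0.0122 and 0.0417), but WT was at the floor in both. *Ccl12*, another ligand of CCR2, gave 1, 1 and 4 counts in WT against 14, 4 and 3 in KO. *Ccl2*, the main monocyte attractant, gave 1, 3 and 2 counts in WT against 3, 4 and 1 in KO, with a pooled ratio of 1.24 (95% counting interval 0.377 to 4.34), so a difference was not detectable at this depth. *Ccl9* and *Ccl24*, which attract myeloid cells and eosinophils, were highest in KO3, at 21 and 20 counts. *Cxcl10*, an interferon-induced ligand, had 18 counts in KO1 and 6 or fewer in every other library, and it shares 133 exon bases with *Art3* on the opposite strand.

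None of the 5 neutrophil-attracting CXC ligands could be tested. *Cxcl1* gave 0, 3 and 2 counts in WT against 4, 5 and 5 in KO, and *Cxcl2*, *Cxcl3*, *Cxcl5* and *Cxcl15* had at most 2 in any library. *Cxcr2*, which encodes their receptor, gave 10, 5 and 9 counts in WT against 14, 9 and 10 in KO (pooled ratio 1.28, 95% counting interval 0.733 to 2.26). *Cxcr3*, which encodes the receptor of CXCL9 and CXCL10, gave 3, 4 and 3 counts in WT against 3, 1 and 3 in KO. *Xcl1* and its receptor gene *Xcr1* had at most 6 and 10 counts.

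**Figure D3:**
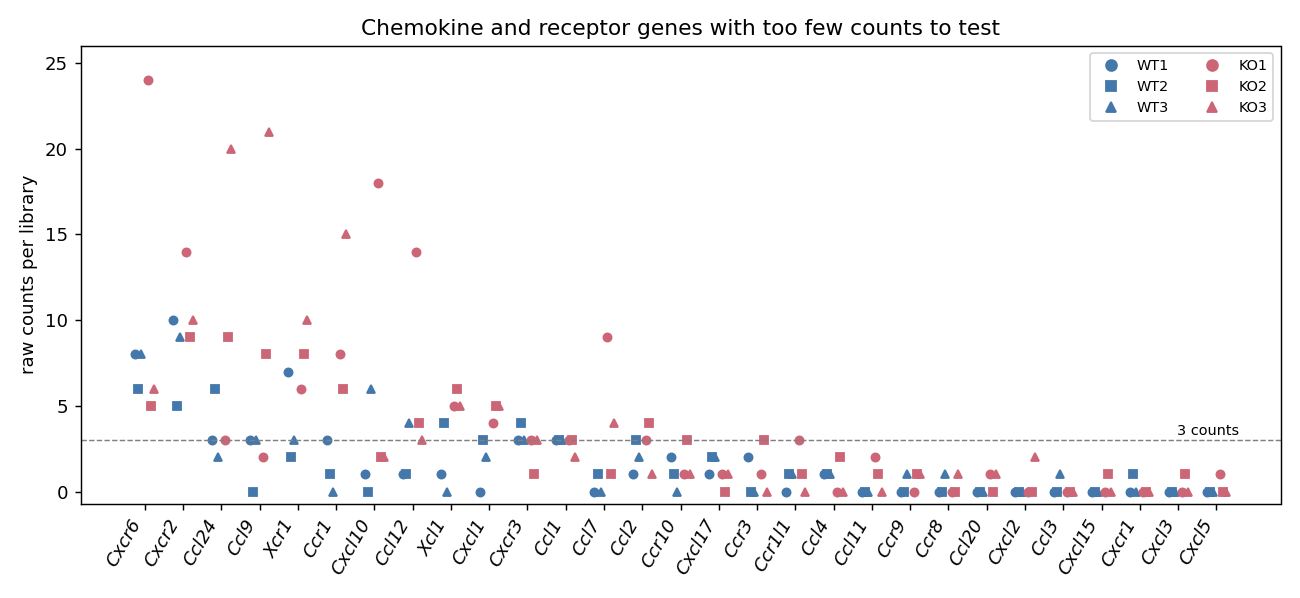
Raw counts per library of the 29 genes too low to compare, 1 point per library, ordered by their total. The dashed line marks 3 counts; most points lie on or under it, and the highest are single KO libraries, *Cxcr6* at 24 in KO1, *Ccl9* at 21 in KO3 and *Ccl24* at 20 in KO3.

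The 3 KO mice were not alike. Among the 11 genes that rose, KO1 was the highest KO library for 8, KO2 for *Cxcl12* and *Cx3cl1*, and KO3 for *Ccl6*. How often KO1 was the highest among all genes called higher was not counted, so the 8 are not read as particular to chemokine genes. Relative to the WT mean, *Ccl8* stood at 12.0 in KO1, 4.65 in KO2 and 6.78 in KO3, and *Ccr2* at 10.8, 3.06 and 3.18. *Cxcl16*, by contrast, stood at 2.17, 1.87 and 2.01. Over all genes KO1 stood apart, with a chi-square per degree of freedom of 8.26 against KO2 and 8.25 against KO3, whereas KO2 and KO3 gave 2.73. The summed level of 8 T cell markers was 8.61 CPM in KO1 and 3.88 to 7.16 CPM in the other libraries, and that of 5 NK cell markers was 1.08 against 0.318 to 0.789 CPM. These sums rest on few markers, since *Cd8a* had 28 counts in KO1 against 2 to 5 in the other libraries and *Nkg7* had 10 against 1 to 3, whereas *Cd3d* was highest in WT3, *Cd3e* in KO3 and *Klrb1c* in WT3. Without *Cd8a* the T cell sum was 7.17 CPM in KO1 and 6.88 CPM in WT3. The part of these cells in the levels of KO1 was not tested. Without KO1 the median LFC of the tested genes was 0.41 and 10 were higher, the lost call being that of *Cx3cr1*.

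**Figure D4:**
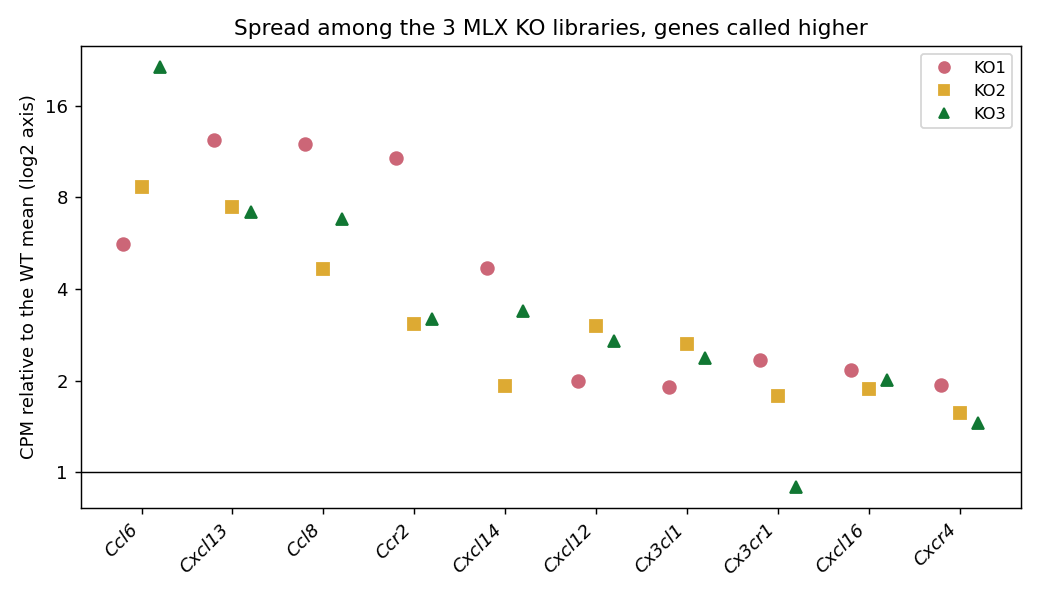
CPM of each KO library divided by the WT mean, on a log2 axis, for the genes described here as higher, ordered by their largest ratio. Each symbol is 1 KO mouse and the line marks the WT mean; KO3 lies far above the others for *Ccl6* and under the line, at 0.894, for *Cx3cr1*, and the *Ccl6* and *Cxcl13* ratios rest on a WT mean of at most 0.128 CPM.

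Markers of the cells that bear these receptors were counted in the same libraries. Of 12 macrophage markers 11 could be tested, 10 were higher (90.9%, against 24.8% of all genes tested) and 1, *Aif1*, was lower, with a median LFC of 1.33. *Lyz2*, *C1qa*, *Cd163* and *Cd14* had LFCs of 1.79, 1.6, 1.58 and 1.52. Without *Aif1*, whose counts exceeded those of all the others together, the markers summed to 82.6 to 89.0 CPM in WT and 180 to 187 CPM in KO. With *Aif1* they summed to 455 to 472 CPM in WT and 470 to 504 CPM in KO. The share of the macrophage markers' change in that of *Ccr2*, *Cx3cr1*, *Ccl6*, *Ccl8* and *Cxcl16* was not tested.

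Lymphocyte and granulocyte markers were scarce. Of 8 T cell markers 3 could be tested and 0 passed by edgeR, 0 at an unadjusted p of 0.05 and 0 by DESeq2, and their summed level was 3.88 to 7.16 CPM in WT and 4.09 to 8.61 CPM in KO. Of 5 B cell markers 2 could be tested, with 0 by the same 3 counts. Of 6 dendritic cell markers 4 could be tested and 1, *Clec10a*, was higher (LFC 1.57), a share of 25.0% against 24.8% of all genes tested. For NK cells 0 of 5 markers could be tested, and for mast cells 0 of 5. Of 8 neutrophil markers only *Mpo* could be tested and was lower (LFC -1.84), while *S100a8* had 1 count in 6 libraries.

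Leydig and Sertoli markers rose and spermatid markers fell in the same libraries. Of all genes tested, 24.8% were higher and 20.6% lower. All 6 Leydig markers were higher, with a median LFC of 1.16 and summed levels of 735 to 756 CPM in WT and 1660 to 2120 CPM in KO, and all 6 Sertoli markers tested of 7 were higher, with a median LFC of 0.79. Peritubular myoid markers gave 4 higher and 1 lower of 6. Endothelial markers, from a cell type that makes CX3CL1 and CXCL12, gave 2 higher and 0 lower of 7 by edgeR and by DESeq2. The 28.6% higher by edgeR was near the share of all genes, whereas the median LFC of the 7 was 0.55, against 0.03 for all genes tested. *Kdr* (LFC 2.05) and *Cdh5* (LFC 0.83) were the 2 higher, and the other 5 did not pass. At an unadjusted p of 0.05, 4 endothelial markers were higher and 0 lower, against 4174 higher and 3557 lower of all 14640 genes tested. All 6 spermatid markers were lower, with a median LFC of -0.75 and summed levels of 13300 to 14000 CPM in WT and 7240 to 8980 CPM in KO. Of 6 spermatocyte markers 4 were lower (1 without WT1 or without KO2, 2 without KO3, and 0 with library size alone), and of 6 spermatogonia markers 1 was higher and 1 lower. A shift in the makeup of the tissue and a change within its cells cannot be told apart in these data.

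Beyond the named families, 10 chemokine genes with other names were listed and 7 could be tested, of which 42.9% were higher (against 24.8% of all genes). *Ackr3*, *Pf4* (LFC 0.64, edgeR adjusted p = 0.0372) and *Mif* (LFC 0.58, edgeR adjusted p = 0.000431) were higher, and *Cklf* (LFC -0.26, edgeR adjusted p = 0.00647) was lower. PF4 is a platelet CXC ligand and MIF binds CXCR4 among other receptors. The *Pf4* call was narrow: it was lost in DESeq2 (adjusted p = 0.16), in DESeq2 with littermate pairs as a block (adjusted p = 0.29), and without WT1, WT3, KO1, KO2 or KO3 (LFC 0.52 to 0.72). The *Cklf* call was lost with library size alone (LFC -0.12, adjusted p = 0.109). Of 32 genes of signalling below the receptors, 30 could be tested, 17 were higher (56.7%, against 24.8% of all genes) and 2 lower, with a median LFC of 0.3. The number higher was 10 without KO3, 10 in DESeq2 and 7 in DESeq2 with the block. Genes with an LFC above 1 included *Rgs2*, which shortens G protein signals (LFC 1.71), *Lyn*, a kinase of myeloid and B cells (LFC 1.08), and *Was*, an actin regulator of blood cells (LFC 1.44, edgeR adjusted p = 0.0471). The *Was* call rested on at most 12 counts per library and was lost in DESeq2 (adjusted p = 0.164, and 0.211 with the block), without the filter, and without WT1, WT3, KO1, KO2 or KO3. *Adrbk2* and *Pik3cd* were lower (LFC -0.25 and -0.21), but neither passed with library size alone, and the *Pik3cd* call was lost without WT1, WT2, KO2 or KO3.

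Of 14 cytokines that induce chemokine genes or their source cells, 5 could be tested and 2 were higher (40.0%, against 24.8% of all genes tested). *Csf1*, the growth factor of macrophages, gave 87, 70 and 100 counts in WT against 237, 252 and 290 in KO (LFC 1.5, edgeR adjusted p = 1.62e-05), and *Tgfb1* had an LFC of 0.51 (edgeR adjusted p = 0.00733). *Tnf* gave 0, 0 and 1 counts in WT against 3, 3 and 0 in KO, *Ifng* had 1 count in 6 libraries, and *Il6* had at most 2 in any library.

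Chromosome 11 held 14 of the 52 genes, *Mlx* itself and the cluster from *Ccl2* to *Ccl4*, which lies 17.4 to 19.0 Mb from *Mlx*. Of its 5 tested genes, *Ccl6*, *Ccl8* and *Cxcl16* were higher, *Ccr7* lower and *Ccl5* did not pass. *Ccr10*, at 0.1 Mb the nearest chemokine gene to *Mlx*, had 3 or fewer counts in every library. *Mlx* (chr11:101086707-101092207) gave 128, 96 and 98 counts in WT against 94, 109 and 102 in KO (LFC -0.18, edgeR adjusted p = 0.326). Because the deposited count covers the whole gene, with exons that the deletion leaves in place, it does not check the genotype labels.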

How the data were processed

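RNA from 6 whole testes, 3 WT and 3 MLX KO, was sequenced by the study as paired-end reads. The authors aligned them with TopHat to mm10, and the deposited counts give the raw reads of each library for each gene symbol. The submitters' processing notes also list bcl2fastq 1.8.4, Bowtie2, DESeq2 and bedtools. The counting tool, its annotation and whether it used strand are not given in the sources used here. The deposited table also holds the authors' own comparison, namely a mean signal, log2 fold changes with standard errors, a test score, and p-values with adjusted p-values. None of these columns was used. ChIP-Seq samples were not analysed here.

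Of 17933 rows, 2 were identical repeats and were used once. Counts were fitted with edgeR 4.0.16 in R 4.3.3, using its low-count filter at a minimum of 10 (about 0.55 CPM in 3 libraries), TMM scaling, genotype as the only term and the two-sided quasi-likelihood test, with Benjamini-Hochberg adjustment over 14640 genes and a threshold of 0.05. The SE is the LFC divided by the square root of the F statistic. CPM was scaled by TMM, and RPKM divides it by the exon length in GENCODE M21. The detection floor of a group was a maximum of 3 counts in any of its libraries. Pooled ratios carry exact 95% intervals, which cover counting error only. Gene positions and promoters are from RefSeq (GRCm38.p6, the mm10 assembly), and near-identical transcripts were found with blastn 2.17.0 at 95% identity or more. All 52 chemokine genes and the genes of 17 lists were counted, and from each list at most 4 called genes by size of LFC, and defining genes near 0, were named. Some genes that the counts, medians and sums include are not reported here by name or drawn in the figures. The chemokine genes and all lists were chosen with earlier results of these data known.

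The titles number the libraries as pairs and the methods describe littermates. Deviations of log2 CPM from group means correlated at 0.145, 0.0363 and 0.121 within pairs and at most at 0.033 otherwise. No libraries were duplicates. The alternatives were DESeq2 1.42.0, edgeR's exact test, other scalings, other filters, littermate pairs as a block with either tool, and each library left out. The code was tested on simulated data.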

Additional observations from a re-analysis of the deposited data

How the results depend on the processing

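Of the 14 chemokine genes called, 10 stayed past the threshold in all alternatives in which they were tested, 15 in number for 7 of them and 14 for *Ccl6*, *Cxcl13* and *Cxcl14*, and the other 4 were *Ccl27a*, *Ccr6*, *Ccr7* and *Cx3cr1*. *Ccl22* passed with DESeq2's size factors in edgeR (LFC -0.47, adjusted p = 0.0399). Genes called lower numbered 0 with library size alone and 0 with the replicate block in DESeq2. TMM factors were 0.943 to 0.961 in WT and 1.021 to 1.066 in KO. With library size alone the LFC moved from -0.2 to -0.07 for *Ccl27a*, from -0.7 to -0.56 for *Ccr6* and from -0.72 to -0.58 for *Ccr7*. The cause of the loss with the block was not tested. Library size alone moved the median LFC of all genes from 0.03 to 0.16, and 5343 genes were then higher and 1268 lower, against 3634 and 3015. The median LFC of the chemokine genes was 0.48 with at least 1 CPM in 3 libraries, which tested fewer genes, and 0.46 with the replicate block in DESeq2. The replicate block in edgeR kept 11 higher and 3 lower with a median of 0.62, and in DESeq2 10 were higher. Without the filter, 13 were higher. Leaving out 1 library at a time gave 10 to 11 higher, 1 to 3 lower (1 without KO2) and a median of 0.41 to 0.81. Leaving out 1 library also turned the sign of 4 genes that passed in none of these fits: *Cxcr5* ranged from -0.04 (without WT1) to 0.17, *Ccl28* from -0.81 to 0.06 (without WT2), *Ccl5* from -1.12 to 0.07 (without WT3; 0.02 without KO3) and *Cxcl9* from -0.25 (without KO1) to 1.07. The signalling genes called higher numbered 10 with DESeq2 and 7 with its block. Genes too low to compare number 16 by 3 or fewer counts in every library and 15 by fewer than 10 counts in all. At this depth, a gene under about 10 counts per library could differ without being called.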
